A study of Mus musculus with 12 samples.

Results

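The genes described here encode 40 enzymes and partner proteins that remove reactive oxygen species (ROS) or repair what ROS have oxidised. They are superoxide dismutases and catalase (4 genes), peroxiredoxins (6), the thioredoxin system (4), glutaredoxins (4), glutathione peroxidases (5), glutathione synthesis and reduction (2), glutathione transferases (11) and methionine sulfoxide reductases (4). They were listed by name, with earlier results of these data known, out of 49585 genes counted per sample. Of the 40 genes, 37 were among the 11848 genes that passed the filter on low counts, while Sod3, Gpx8 and Msrb3 did not pass and were not tested.

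The counts came from HSCs sorted from bone marrow as Lin-, Sca1+, ckit+, CD135- and CD150+ cells, a gate that also holds MPP2 cells. Smart-seq2 libraries, made from amplified full-length cDNA, were analysed for 6 WT C57BL/6J mice and 6 Pon2-/- mice on the same background, all 10 to 14 weeks old. The Pon2-/- mice carry a gene trap vector with β-geo in intron 2 of Pon2 in every cell, so that the difference is not limited to HSCs, and the labels name a commercial supplier for the WT mice only and mention no littermates. For each mouse, 8 wells with 10 cells each were sequenced, and 1 count per gene and mouse is given.

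Superoxide dismutases turn superoxide into hydrogen peroxide, which catalase, peroxiredoxins and glutathione peroxidases reduce to water or, for catalase, to water and oxygen. Thioredoxin and glutathione supply the electrons for these peroxidases and are themselves kept reduced by NADPH through thioredoxin reductases and glutathione reductase. Quiescent HSCs are known to hold low ROS levels, and loss of that control drives them into cycle.

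Total counts per sample lay between 12967791 and 24228280, so that a count of 0 leaves an upper limit of 3 counts, or 0.124 to 0.231 counts per 1000000 counts (CPM), for counting error only. All 10 HSC markers examined were counted in every sample, with a summed level of 2175 to 2870 CPM in WT and 2045 to 2783 CPM in Pon2-/- samples. Myeloid markers varied widely, with a sum of 878 to 9806 CPM in WT and 830 to 14900 CPM in Pon2-/- samples. Elane and Ctsg, at 0 in all Pon2-/- samples, were counted in only 1 and 2 WT samples. Prtn3 and Lyz2 were counted in every sample, with means of 314 and 1002 CPM in WT against 308 and 967 CPM in Pon2-/- samples. The widest ranges of the myeloid list were those of S100a8 and S100a9. S100a8 had 0 to 5420 CPM in WT and 17.3 to 8577 CPM in Pon2-/- samples, and S100a9 had 1.35 to 2733 and 34.2 to 3427 CPM. Mpo was lower in Pon2-/- than in WT samples (means 11.7 against 26.4 CPM) and Ly6c2 higher (63.05 against 24.25 CPM). Erythroid markers summed to 1843 to 2964 CPM and 1999 to 2575 CPM, with Car1, Slc4a1 and Ermap at 0 in all samples, and markers of megakaryocytes, the B lineage, the T lineage and mast cells or basophils summed to at most 354, 542, 57.7 and 45.5 CPM in any sample, with Cd3e, Cd8a and Prss34 at 0 throughout. Of the erythroid list, only Hbb-bt separated the genotypes, with 6.11 to 38.1 CPM in WT and 0 to 1.11 CPM in Pon2-/- samples. Its adjusted p was 0.265 with edgeR's quasi-likelihood test and Benjamini-Hochberg adjustment, and its part in the values below was not tested. In means of WT against Pon2-/- samples, Hba-a1 had 1.34 against 1.23 CPM and Car2 2256 against 2212 CPM. Hbb-bs (3.85 against 1.93 CPM), Hba-a2 (1.002 against 0.635 CPM) and Alas2 (2.84 against 1.76 CPM) were lower in Pon2-/- samples. Klf1 (0.544 against 6.73 CPM) and Epor (5.69 against 12.96 CPM) were higher in them. Flt3, which encodes CD135, was counted at 4.59 to 49.3 CPM in WT and 26.7 to 65.0 CPM in Pon2-/- samples in spite of the gate. Pon2 itself (chr6:5264147-5298455) ranged from 56.4 to 202 CPM in WT HSCs, with a median of 105 CPM. In Pon2-/- HSCs it ranged from 1.16 to 33.1 CPM, with a median of 29.9 CPM, and no sample of one genotype reached the other. The log2 fold change of Pon2 was -2.13 (unadjusted p = 0.00222, adjusted p = 0.586, edgeR's quasi-likelihood test with Benjamini-Hochberg adjustment). Even the disrupted gene thus did not reach an adjusted p below 0.05. In such bulk samples, fewer cells of a type and less RNA per cell cannot be told apart.

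To compare WT with Pon2-/- HSCs, edgeR's quasi-likelihood test was run over all 11848 genes, with a false discovery rate (FDR) below 0.05 after Benjamini-Hochberg adjustment and a fold change above 2 as thresholds. None of the 37 tested genes of the module passed (0 of 37), while 24 of all tested genes did (0.203%), and the smallest adjusted p among the 37 was 1.00. Pon2 itself did not pass either, although all Pon2-/- samples lay below all WT samples. Without adjustment, 1 of the 37 genes had a p below 0.05, which was Gstt2, compared with 371 of all genes tested (3.13%). No member had all samples of one genotype above all samples of the other, which was the case for 75 of all genes tested (0.633%). DESeq2, run as an alternative, also called 0 of the 39 members it tested, of which 2 had no adjusted p, against 304 of 22153 genes (1.37%), and limma voom called 0 of the 37 against 23 of all genes (0.194%).

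The log2 fold changes of Pon2-/- over WT lay between -1.15 (Gpx3) and 0.66 (Gstt2, Txnrd2 and Gpx7), and 30 of the 37 genes lay between -0.5 and 0.5. The value of Gpx3 depended on the fit. In fits added after seeing the data, it was -4.98 with a term for samples with more than 10 CPM of Y-linked genes and -4.06 with a term for replicate numbers 1 to 3 against 4 to 6, and that of Mgst2 was 0.19 as reported and 1.38 and 0.96 with these terms, all with an unadjusted p above 0.05 in edgeR's quasi-likelihood test. The median was -0.05, next to -0.01 for all tested genes. The difference was above 0 for 17 of the 37 genes, compared with 49.2% of all tested genes. All members together summed to 8683 ± 726 CPM in WT against 8973 ± 1167 CPM in Pon2-/- HSCs (SD, 6 mice each).

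How large a difference the samples could still hide was read from the 95% intervals of the log2 fold changes. For 21 of the 37 genes the whole interval lay between -1 and 1, that is, within a 2-fold change in either direction, while 25.5% of all tested genes reached this precision. For 12 of them it lay within a 1.5-fold change, which were Sod1, Prdx1, Prdx2, Prdx5, Txn1, Txn2, Txnip, Glrx3, Gpx1, Gpx4, Gstp1 and Msra, compared with 7.21% of all genes. The level of a gene went along with this precision. A mean of at least 100 CPM was found for 56.8% of the tested members and for 18.9% of all tested genes, and among all tested genes above that level 86.1% had an interval within 2-fold, as had 19 of the 21 members. For the remaining 16 tested genes, whose intervals reached beyond 2-fold, a 2-fold difference cannot be seen as absent at this depth and spread.

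**Figure D1:**
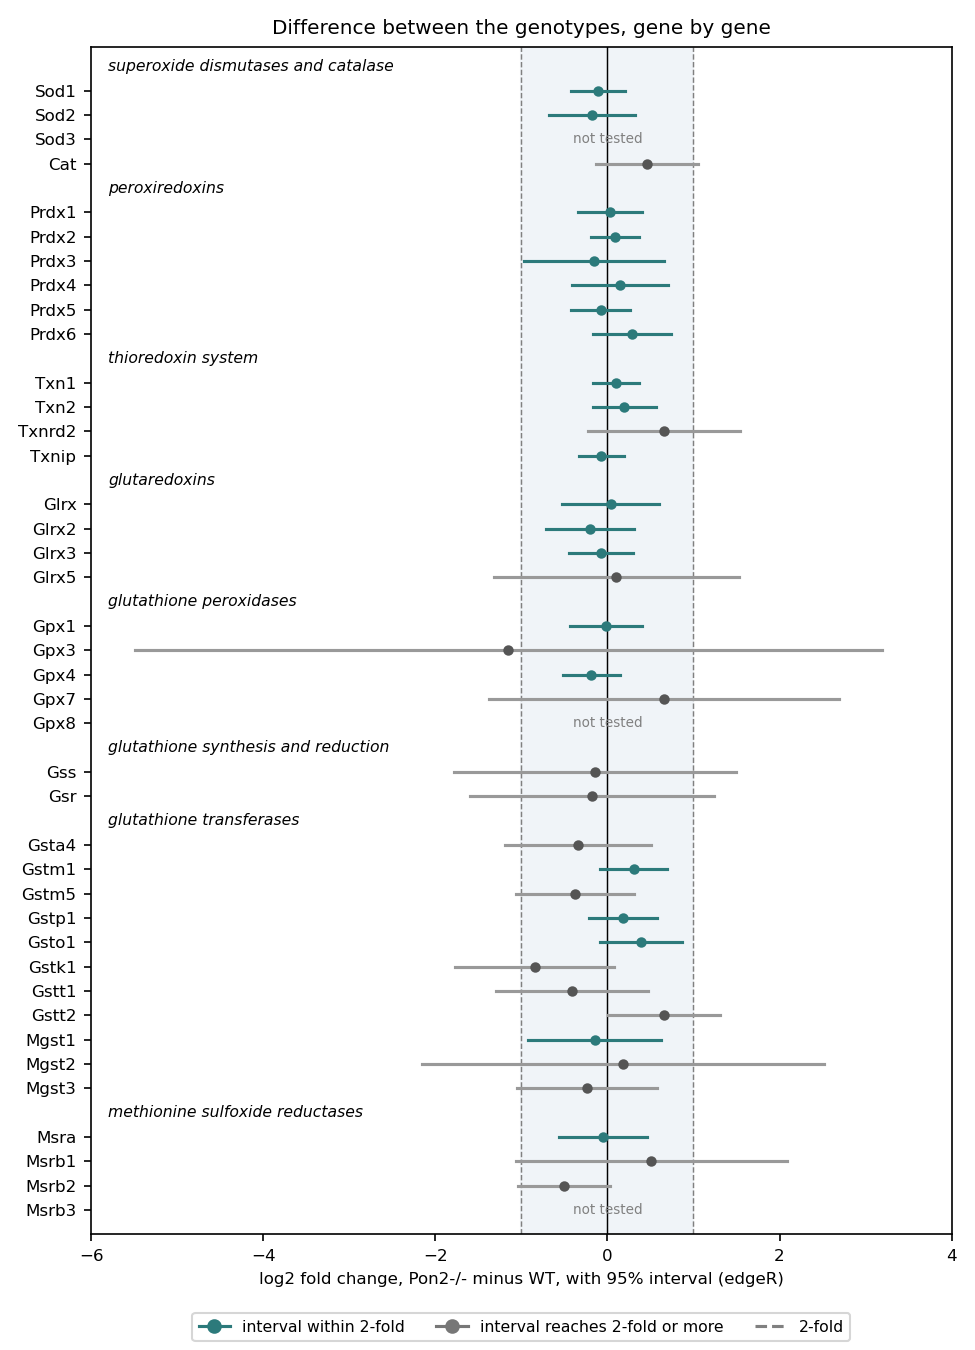
Log2 fold change of Pon2-/- over WT (x axis) for each gene (y axis, by family), with its 95% interval from edgeR, where points and bars in green have an interval within 2-fold and dashed lines mark 2-fold. The intervals of the abundant peroxiredoxins, thioredoxins, Gpx1 and Gpx4 are short and include 0, the interval of Gpx3 is the widest (-5.49 to 3.19), and that of Gstt2 starts just above 0 (0.01 to 1.31).

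Over all 12 samples of both genotypes, most of these genes varied less than the median tested gene, with a smaller gap among genes of like level. The coefficient of variation over the 12 samples had a median of 31.4% among the 37 tested members and of 56.8% among all tested genes. Among genes with a mean of at least 100 CPM these medians were 23.8% and 27.6%, and below that level they were 50.2% and 65.5%. The lowest variation was that of Txn1 (12.8%), Txnip (13.2%) and Prdx2 (13.8%), and the highest that of Gpx3 (124%), Mgst2 (89.8%) and Gpx7 (75.2%). A count was present in all 12 samples for 35 of the 40 genes, and for 11 of these the highest sample was less than 2-fold above the lowest.

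**Figure D2:**
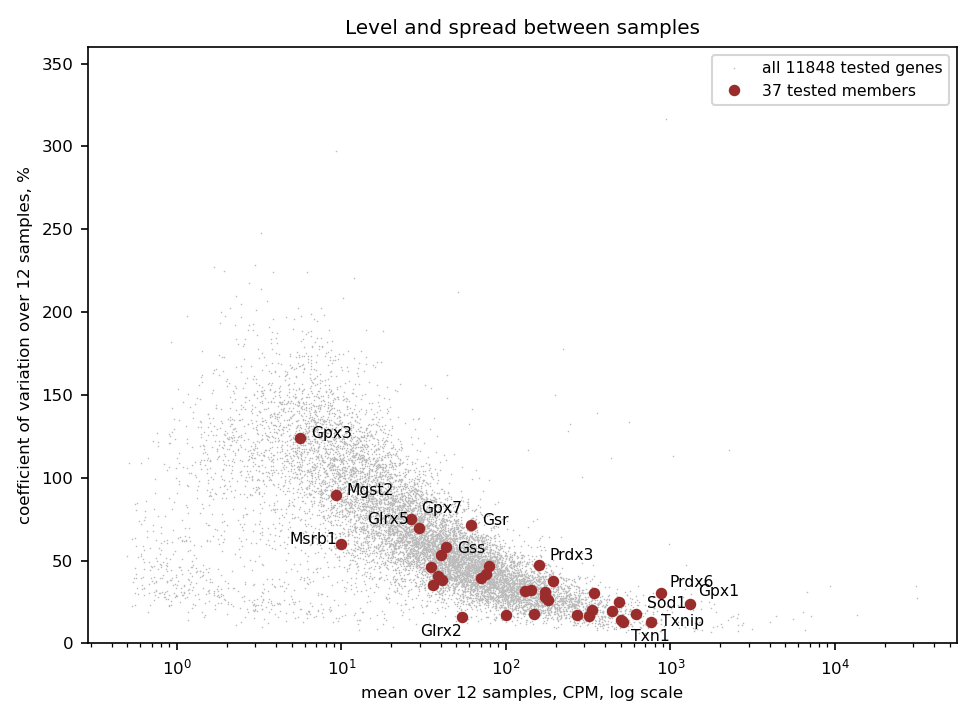
Coefficient of variation over the 12 samples (y axis) against the mean level in CPM (x axis, log scale) for all 11848 tested genes (grey) and the 37 tested members (red, some named). Spread falls as the level rises, the abundant members Txn1, Txnip, Sod1 and Gpx1 lie at the lower right, and Gpx3 and Mgst2, at low levels, lie at the upper left.

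Many genes of this kind are known targets of the transcription factor Nrf2 (Nfe2l2), which binds antioxidant response elements with the core TGACNNNGC and is held back by Keap1. The 2 promoters below are printed because Sod1 and Prdx1 are abundant members with short intervals and hold this core before the start of transcription. They show the genomic bases upstream of the start, as far as no annotated exon covers them, read 5′ to 3′ on the plus strand (RefSeq, GRCm38.p6), with the match in capitals.
Prdx1, chr4:116685349-116685543: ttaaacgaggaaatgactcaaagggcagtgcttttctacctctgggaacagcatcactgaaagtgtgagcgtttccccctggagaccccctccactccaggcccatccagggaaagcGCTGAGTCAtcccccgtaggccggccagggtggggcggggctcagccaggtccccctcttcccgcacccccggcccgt
Sod1, chr16:90220512-90220753: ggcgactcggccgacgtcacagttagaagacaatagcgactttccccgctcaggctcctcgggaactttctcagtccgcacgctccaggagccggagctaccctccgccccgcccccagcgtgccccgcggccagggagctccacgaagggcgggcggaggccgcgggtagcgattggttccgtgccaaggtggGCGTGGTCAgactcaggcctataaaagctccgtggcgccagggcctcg

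Both matches lie on the minus strand, as TGACTCAGC in Prdx1 and TGACCACGC in Sod1, 124 and 47 bases before the start. The Prdx1 match overlaps TGACTCA, the site of AP-1 factors. Of the 34 members with a promoter in the RefSeq table, 4 (11.8%) hold the core on either strand in the 250 bases before a start, which were also Gstm5 (TGACCACGC) and Mgst1 (TGACCGTGC), both within bases that GENCODE annotates as exon. Among all genes of the table the share was 11.5%. The log2 fold changes of these 4 genes lay between -0.38 and 0.03, within the range of -1.15 to 0.66 of the 28 tested members without a match. A match is a string of letters and not a shown binding site, and the absence of one covers only these bases.

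Nfe2l2 (chr2:75675513-75704641) had 81.2 to 171 CPM in WT HSCs, with a median of 108 CPM, and 142 to 251 CPM in Pon2-/- HSCs, with a median of 206 CPM. Of the Pon2-/- samples, 1 lay within the WT range and 5 lay above it. Its log2 fold change was 0.75 (95% interval 0.27 to 1.23, unadjusted p = 0.00465, adjusted p = 0.834 with edgeR's quasi-likelihood test and Benjamini-Hochberg adjustment), so that it did not pass. Keap1 (chr9:21229730-21239361), which marks Nrf2 for degradation, had 47.2 to 104 CPM in WT against 26.4 to 77.5 CPM in Pon2-/- HSCs (medians 68.0 and 43.7 CPM). Its groups overlapped broadly, with a log2 fold change of -0.51 (interval -1.19 to 0.17).

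Among the superoxide dismutases and catalase, 0 of 3 tested genes passed, 1 was higher and 2 were lower in Pon2-/- HSCs, with a median of -0.11. Sod1 (chr16:90220754-90226329), the copper-zinc enzyme of the cytosol, had 470 to 819 CPM in WT HSCs, with a median of 600 CPM, and 502 to 708 CPM in Pon2-/- HSCs, with a median of 585 CPM. The Pon2-/- samples lay inside the WT range. Its log2 fold change was -0.11 (standard error 0.15, interval -0.43 to 0.21), and an exact permutation test, which ran through all assignments of the samples to 2 groups and compared mean log2 CPM, gave p = 0.524. Sod2, the manganese enzyme of mitochondria, had 98.8 to 245 CPM in all samples and a log2 fold change of -0.18 (interval -0.68 to 0.32). Cat, the peroxisomal catalase, had a mean of 163 ± 70.7 CPM in WT against 224 ± 67.7 CPM in Pon2-/- HSCs (SD, 6 mice each) and a log2 fold change of 0.46 with an interval of -0.14 to 1.05. By replicate number, Cat had 153 ± 26.3 CPM in WT against 277 ± 36.9 CPM in Pon2-/- replicates 1 to 3. In replicates 4 to 6 it had 173 ± 107 against 170 ± 38.5 CPM (SD, n = 3 each), a split made after seeing the data and not tested. Sod3, the secreted form, had 1 count in each of 1 WT and 1 Pon2-/- sample and 0 in all others, so that no fold is given.

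The 6 peroxiredoxins, which reduce peroxides through a reactive cysteine, were all tested and all had an interval within 2-fold. Of these, 4 were higher and 2 lower in Pon2-/- HSCs, and their log2 fold changes lay between -0.16 (Prdx3) and 0.28 (Prdx6). Prdx6 (chr1:161240112-161251219), which uses glutathione in place of thioredoxin, had 590 to 1001 CPM in WT, with a median of 753 CPM, and 697 to 1483 CPM in Pon2-/- HSCs, with a median of 801 CPM. The Pon2-/- replicates 1 and 2 lay above all WT samples, while the other 4 lay inside the WT range (interval of the log2 fold change -0.17 to 0.74). The cytosolic Prdx1 and Prdx2 had log2 fold changes of 0.03 (interval -0.34 to 0.40) and 0.09 (-0.19 to 0.37). Prdx3, the mitochondrial form, was the least even of the family, with 54.5 to 331 CPM over all samples. Prdx4 of the endoplasmic reticulum had 83.8 to 264 CPM, and Prdx5, found in mitochondria, peroxisomes and cytosol, had 190 to 333 CPM.

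The thioredoxin system held the most even members, Txn1 and Txnip, and 0 of its 4 genes passed. Txn1 (chr4:57943373-57956411), the cytosolic thioredoxin, had 416 to 571 CPM in WT, with a median of 483 CPM, and 482 to 648 CPM in Pon2-/- HSCs, with a median of 502 CPM. Of the Pon2-/- samples, 1 lay above the WT range and the other 5 inside it, and the log2 fold change was 0.10 (interval -0.16 to 0.36, exact permutation test p = 0.355). Txn2, the mitochondrial thioredoxin, had 240 to 429 CPM and a log2 fold change of 0.20. Txnip, which binds thioredoxin and blocks it, had 626 to 905 CPM and a log2 fold change of -0.07 with an interval of -0.34 to 0.20. Txnrd2, the mitochondrial thioredoxin reductase, had 27.2 ± 7.90 CPM in WT against 43.0 ± 19.0 CPM in Pon2-/- HSCs (SD, 6 mice each). Its log2 fold change of 0.66 had an interval of -0.22 to 1.54, which includes 0. By replicate number, Txnrd2 had 29.3 ± 7.80 CPM in WT against 59.3 ± 7.84 CPM in Pon2-/- replicates 1 to 3. In replicates 4 to 6 it had 25.0 ± 9.03 against 26.7 ± 6.28 CPM (SD, n = 3 each). This split was made after seeing the data and was not tested.

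Glutaredoxins use glutathione to reduce protein thiols or carry iron-sulfur clusters, and 0 of 4 passed. Glrx3 (chr7:137437614-137468594), a cytosolic member that carries iron-sulfur clusters, had 138 to 171 CPM in WT, with a median of 149 CPM, and 104 to 193 CPM in Pon2-/- HSCs, with a median of 142 CPM. The Pon2-/- samples reached beyond the WT range on both sides, and the log2 fold change was -0.07 (interval -0.45 to 0.30). Glrx and the mitochondrial Glrx2 had 79.9 to 224 CPM and 41.3 to 69.3 CPM over all samples. Glrx5, which acts in mitochondrial iron-sulfur cluster assembly, varied from 5.65 to 64.1 CPM within WT alone, and its interval of -1.32 to 1.53 leaves its difference unresolved.

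Among the glutathione peroxidases, Gpx1 (chr9:108338903-108340343), the cytosolic selenoenzyme, was the most abundant of all 40 genes, both in CPM and per length, and 0 of 4 tested genes of the family passed. It had 1055 to 1621 CPM in WT, with a median of 1274 CPM, and 918 to 1729 CPM in Pon2-/- HSCs, with a median of 1274 CPM. Its log2 fold change was -0.02 (standard error 0.19, interval -0.44 to 0.40). Gpx4, which reduces lipid peroxides in membranes, had 311 to 364 CPM in WT against 206 to 374 CPM in Pon2-/- HSCs and a log2 fold change of -0.19 (interval -0.52 to 0.14). The 3 lowest samples of Gpx4 were the Pon2-/- replicates 4, 5 and 6, and the others of that genotype lay at 348 to 374 CPM. The secreted Gpx3 was at 0 in 2 WT and 4 Pon2-/- samples and had at most 17.4 CPM. Gpx7 of the endoplasmic reticulum had 13.4 to 25.4 CPM in WT against 0 to 70.5 CPM in Pon2-/- HSCs. Gpx8 of the same compartment had a count in 2 WT samples, at most 8.61 CPM, and in no Pon2-/- sample.

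Within each genotype, Gpx1 separated into a higher and a lower set by the replicate number of the labels, a pattern that was noticed in its counts and is given without a test. In WT HSCs, replicates 1 to 3 had 1556 ± 102 CPM and replicates 4 to 6 had 1076 ± 29.0 CPM (SD, n = 3 each). In Pon2-/- HSCs these values were 1632 ± 97.2 and 963 ± 48.2 CPM. Thus the numbers of the samples went along with a larger difference in Gpx1 than the genotype did. Glrx3 was the other member whose samples with the numbers 1 to 3 (156 to 193 CPM) all lay above those with 4 to 6 (104 to 143 CPM), so that 2 of 37 members had no overlap between the number ranges, compared with 0.937% of all tested genes.

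The labels name no batch, day or sequencing run for these numbers. Other measures moved along with them. Counts of CT010467.1, a gene annotated as rRNA, were 17292 to 24033 CPM in numbers 1 to 3 and 32256 to 49268 CPM in numbers 4 to 6, and total counts were 17555037 to 24228280 and 12967791 to 21418796. A summed level of Y-linked genes above 10 CPM was found in 1 of 6 samples of numbers 1 to 3, of which the other 5 had at most 0.0403 CPM, and in all 6 of numbers 4 to 6. It was found in 3 of 6 WT and 4 of 6 Pon2-/- samples. Pon2-/- replicate 3, the sample above 10 CPM in numbers 1 to 3, had 1534 CPM of Gpx1 and lay in the higher set. The part of these measures in the level of Gpx1 was not tested. With the number range as a term in the fit, an alternative added after seeing the data, the log2 fold change of Gpx1 between the genotypes was -0.05, and 0 members passed.

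**Figure D3:**
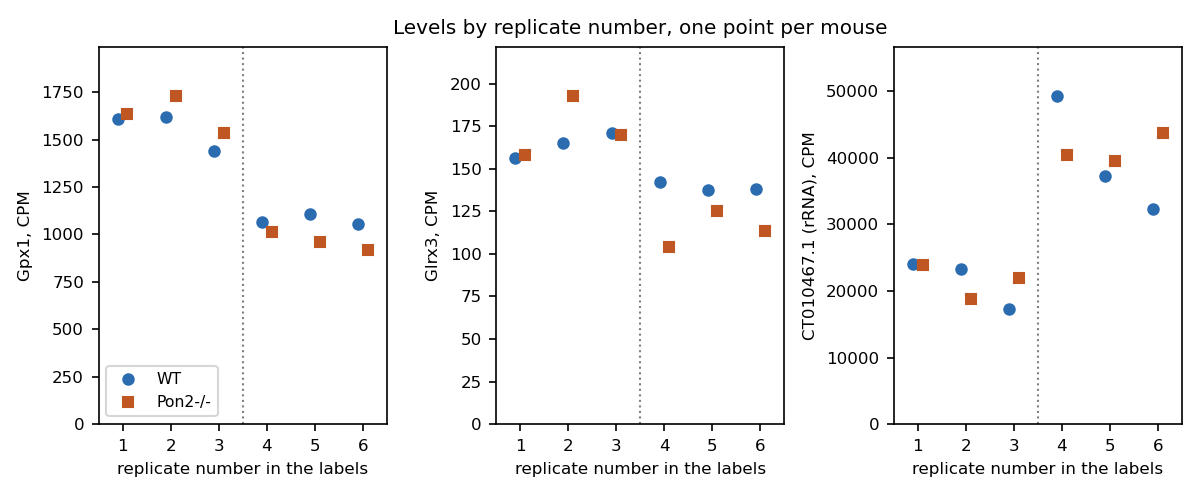
Levels in CPM (y axes) of Gpx1, Glrx3 and the rRNA gene CT010467.1 by the replicate number in the labels (x axis), one point per mouse, WT as circles and Pon2-/- as squares. Gpx1 and Glrx3 are higher in all samples numbered 1 to 3 than in all numbered 4 to 6 in both genotypes, and CT010467.1 is lower in them.

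Glutathione synthetase (Gss), which completes glutathione, and glutathione reductase (Gsr), which returns it to the reduced form, were both uneven. Gsr (chr8:33652523-33698163) had 23.3 to 149 CPM in WT, with a median of 61.8 CPM, and 3.61 to 127 CPM in Pon2-/- HSCs, with a median of 45.6 CPM. The groups overlapped over nearly their whole range, and the log2 fold change of -0.18 had an interval of -1.59 to 1.23. Gss had 0.705 CPM in WT replicate 4 and 4.51 CPM in Pon2-/- replicate 6, while the other 10 samples had 26.4 to 89.8 CPM. Its interval was -1.79 to 1.49. The other step of glutathione synthesis is taken by the glutamate-cysteine ligase, whose catalytic subunit is encoded by Gclc. Gclc (chr9:77754535-77794485) had 12.4 to 60.0 CPM in WT, with a median of 33.2 CPM, and 2.24 to 26.6 CPM in Pon2-/- HSCs, with a median of 11.5 CPM. Its samples overlapped, with a log2 fold change of -1.53 (interval -3.04 to -0.01, unadjusted p = 0.0484, adjusted p = 1.00 with edgeR's quasi-likelihood test and Benjamini-Hochberg adjustment), and the exact permutation test gave p = 0.0260. When 1 sample was left out, the unadjusted p of Gclc in edgeR's test was 0.0241 to 0.107 and stayed below 0.05 in 4 of 12 cases, with log2 fold changes of -1.91 (without Pon2-/- replicate 5) to -1.31 (without Pon2-/- replicate 2). It stayed below 0.05 without WT replicate 2 or 5 and without Pon2-/- replicate 5 or 6, and was above 0.05 without any other sample. In the 9 alternatives that kept all samples, with edgeR, DESeq2 or limma voom, the unadjusted p of Gclc was 0.0157 to 0.0492. The adjusted p was 0.304 or higher in all of them.

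The 11 glutathione transferases, which join glutathione to electrophiles, were all tested, and 5 were higher and 6 lower in Pon2-/- HSCs. Their sum was 1237 ± 180 CPM in WT against 1403 ± 206 CPM in Pon2-/- HSCs (SD, 6 mice each). Gstm1 (chr3:108012255-108017973) had the highest level per length among them, with 318 to 558 CPM in WT, a median of 411 CPM, and 417 to 701 CPM in Pon2-/- HSCs, with a median of 504 CPM. The Pon2-/- replicates 3, 4 and 6 lay above the WT range, and the log2 fold change was 0.30 (interval -0.09 to 0.70, exact permutation test p = 0.136).

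Gstt2 (chr10:75831114-75837424), of the theta class, had 37.1 to 87.8 CPM in WT HSCs, with a median of 51.6 CPM, and 52.3 to 140 CPM in Pon2-/- HSCs, with a median of 93.9 CPM. The groups overlapped, and 3 of the Pon2-/- samples exceeded all WT samples. The log2 fold change was 0.66 (standard error 0.30, interval 0.01 to 1.31, unadjusted p = 0.0469, adjusted p = 1.00 with edgeR's quasi-likelihood test and Benjamini-Hochberg adjustment), and the exact permutation test gave p = 0.0541, the smallest of any member. With 6 mice per genotype the exact permutation test cannot go below p = 0.00216. When 1 sample was left out, the unadjusted p of Gstt2 was 0.0208 to 0.130 and stayed below 0.05 in 4 of 12 cases, with log2 fold changes of 0.50 (without Pon2-/- replicate 3) to 0.81 (without WT replicate 3). It was above 0.05 without WT replicate 1, 4, 5 or 6 and without Pon2-/- replicate 1, 3, 4 or 5. In the 9 alternatives that kept all samples, with edgeR, DESeq2 or limma voom, the unadjusted p of Gstt2 was 0.0273 to 0.0734 and below 0.05 in 5.

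Gstt1 lies 32.5 kb from Gstt2 on the same strand of chromosome 10 and had a log2 fold change of -0.41 (interval -1.29 to 0.48). Gstm5 lies 114 kb from Gstm1 on chromosome 3, and its log2 fold change was -0.38 (interval -1.07 to 0.30). Both pairs thus had point values of opposite sign, of which the interval excluded 0 for Gstt2 alone, and the difference within a pair was not tested. Gstm5 and Gstm1 lie on opposite strands and are not adjacent, with Gstm7, Gstm6, Gstm3 and Gstm2 between them. Of these, Gstm3 was not tested, and the log2 fold changes of the others were 0.57 (Gstm7), -0.695 (Gstm6) and 2.29 (Gstm2), with intervals that include 0. Gstk1, a transferase of mitochondria and peroxisomes, had 16.5 to 79.8 CPM in WT against 19.2 to 50.3 CPM in Pon2-/- HSCs, with a log2 fold change of -0.85 and an interval of -1.77 to 0.07. Gsto1, of the omega class, had 189 to 395 CPM in WT against 258 to 545 CPM in Pon2-/- HSCs, with a log2 fold change of 0.39 (interval -0.09 to 0.87). The log2 fold change of Gstp1, of the pi class, was 0.18 (interval -0.21 to 0.57), and that of Gsta4, which acts on products of lipid peroxidation, was -0.34 (-1.19 to 0.51). Of the membrane-bound forms, Mgst1 had 38.7 to 176 CPM, Mgst3 19.6 to 67.3 CPM and Mgst2 0.307 to 22.6 CPM over all samples.

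Methionine sulfoxide reductases return oxidised methionine to methionine, Msra for one stereoisomer and the Msrb enzymes for the other. Msrb2 (chr2:19371440-19394976), a mitochondrial form, had 104 to 201 CPM in WT HSCs, with a median of 145 CPM, and 50.1 to 152 CPM in Pon2-/- HSCs, with a median of 108 CPM. Of the 6 lowest samples, 5 were Pon2-/- samples, and the log2 fold change was -0.50 (interval -1.04 to 0.03, exact permutation test p = 0.0606). Msra had a log2 fold change of -0.05 (interval -0.56 to 0.46). Msrb1, a selenoprotein, had 3.56 to 20.7 CPM over all samples and an interval of -1.06 to 2.08. Msrb3, which was not tested, was at 0 in 3 WT and 3 Pon2-/- samples.

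Grouped by place in the cell, a grouping made after the values were seen, 7 genes of mitochondrial enzymes (Sod2, Prdx3, Txn2, Txnrd2, Glrx2, Glrx5 and Msrb2) summed to 935 ± 194 CPM in WT against 906 ± 109 CPM in Pon2-/- HSCs (SD, 6 mice each). Of these, 3 had a log2 fold change above 0 and 4 below 0. Prdx5 and Gstk1, whose products are also found in peroxisomes, were left out of the sum and had log2 fold changes of -0.08 and -0.85. The 5 selenoproteins Gpx1, Gpx3, Gpx4, Txnrd2 and Msrb1, whose synthesis needs selenium, summed to 1701 ± 295 CPM against 1655 ± 465 CPM, mostly from Gpx1, and 2 of them had a log2 fold change above 0 and 3 below 0.

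**Figure D4:**
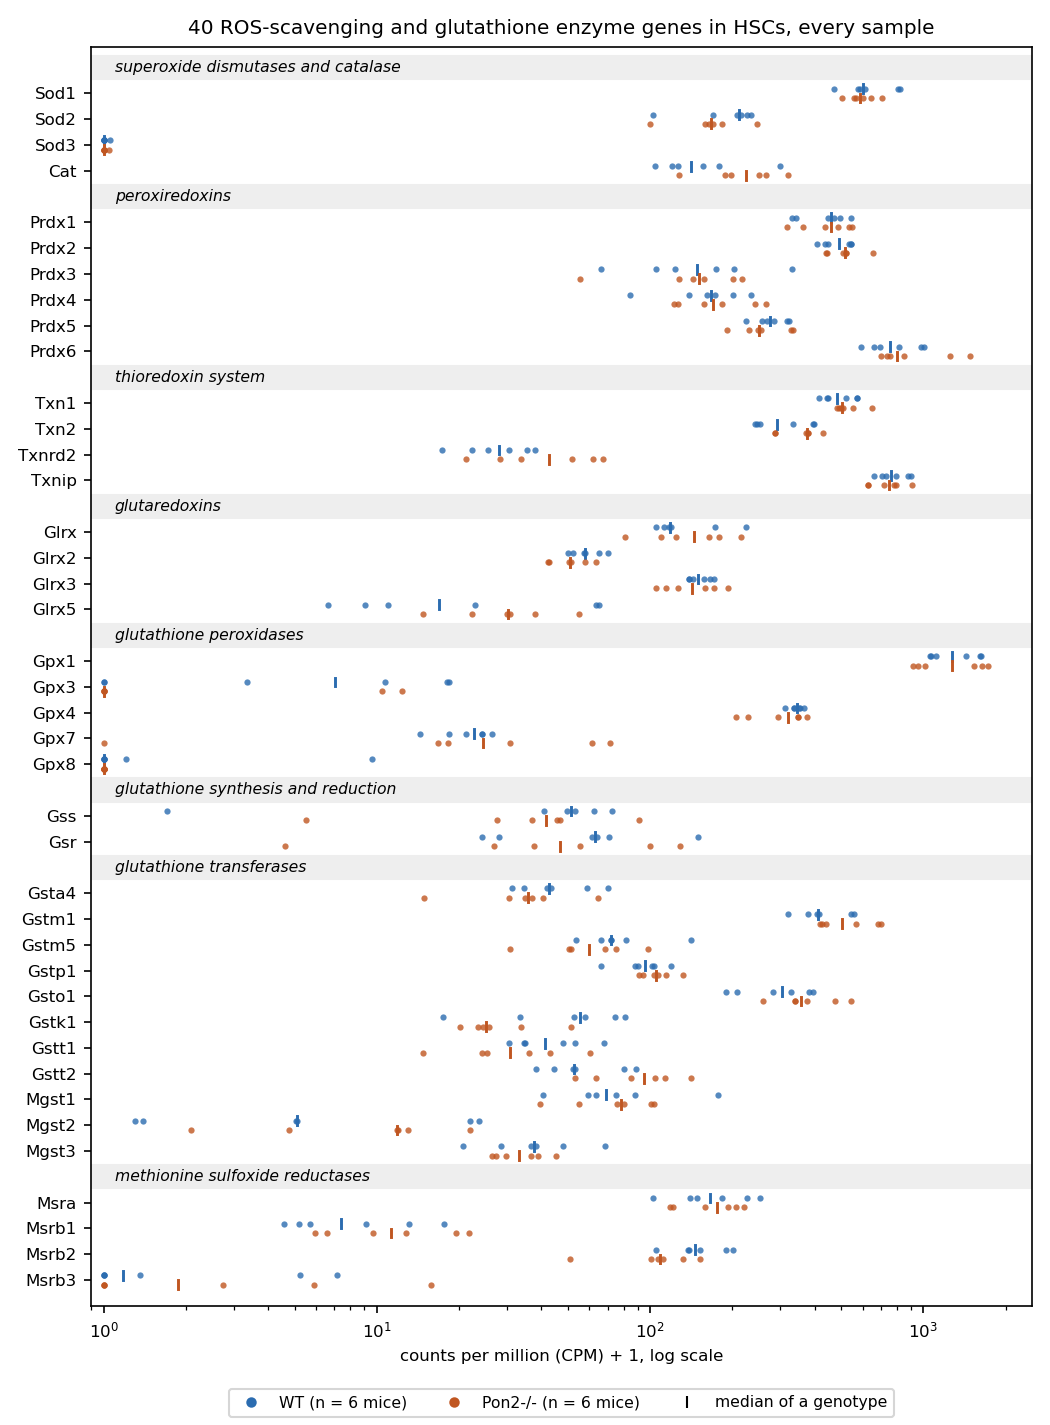
Level of each of the 40 genes (y axis, by family) in every sample, as CPM + 1 on a log scale (x axis), WT in blue and Pon2-/- in orange with the median of each genotype as a bar. Gpx1 has the highest levels, Sod3 lies at or near 0, Gpx8 is at 0 in all but 2 WT samples, and for no tested gene do the genotypes separate.

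Levels of different genes were compared per length, as CPM per 1000 bases of annotated exon (CPM per kb). Over the 12 samples, Gpx1 had 907 ± 216 CPM per kb (SD, n = 12), followed by Txn1 with 487 ± 62.2, Gstm1 with 331 ± 82.4 and Txnip with 243 ± 32.1 CPM per kb. The ranges of Gpx1 (637 to 1200) and Txn1 (396 to 616) did not overlap. Among the superoxide dismutases and catalase, Sod1 (156 ± 27.3) overlapped with Cat (74.1 ± 28.0), and both lay above the mitochondrial Sod2 (18.1 ± 4.74 CPM per kb) in all samples. In the peroxiredoxins, the order was Prdx6, Prdx2, Prdx1, Prdx5, Prdx3 and Prdx4, from 182 ± 55.0 to 82.3 ± 25.6 CPM per kb, and every neighbour in this order overlapped with the next. These orders depend on the length used. Divided by the length of the longest transcript instead, Prdx6 (342), Gpx4 (322), Prdx2 (310) and Gsto1 (290) lay above Txnip (269 CPM per kb), and Prdx4 (169 CPM per kb) came before Prdx5 and Prdx3. Gpx4 had 186 ± 30.9 CPM per kb, and Msrb2 led its family. Low levels were found, among others, for Txnrd2 (7.97 ± 3.66), Gss (7.35 ± 4.28), Glrx2 (6.16 ± 0.975) and Mgst2 (2.52 ± 2.26 CPM per kb).

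Reads of some members could be shared with other genes. Transcripts at least 90% identical over at least 50% of the length exist for 8 members (Sod1, Prdx1, Prdx6, Txn1, Glrx3, Gpx4, Gstm1 and Gstp1), among them Gpx4-ps2 with 99.7% identity to Gpx4 and Gstp2, identical to Gstp1 over 361 bases. STAR counts uniquely mapped reads only, so that the levels of these 8 genes are uncertain. Exon bases of 6 members (Prdx2, Prdx5, Txnrd2, Txnip, Gss and Gstm5) are also annotated to a neighbouring or antisense gene, with the largest shares in Txnip (19.4%) and Prdx5 (19.1%). The libraries carry no strand information, so that reads of these bases cannot be assigned.

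The wider pathway was examined with 68 other redox genes, of which 55 were tested and 0 passed. Of the 55, 29 were higher and 26 lower in Pon2-/- HSCs, with a median log2 fold change of 0.03, and 2 had an unadjusted p below 0.05, which were Gclc and Ftl1. Ftl1 (chr7:45457944-45459884), the light chain of the iron store ferritin, had 677 to 855 CPM in WT, with a median of 741 CPM, and 362 to 735 CPM in Pon2-/- HSCs, with a median of 512 CPM. Of the Pon2-/- samples, 5 lay below all WT samples and 1 within their range, with a log2 fold change of -0.52 (interval -0.87 to -0.16, unadjusted p = 0.00747, adjusted p = 1.00 with edgeR's quasi-likelihood test and Benjamini-Hochberg adjustment). Nnt (chr13:119335448-119408997), the mitochondrial enzyme that makes NADPH from NADH and is known to be disrupted in the C57BL/6J substrain, had 7.30 to 65.4 CPM in WT, with a median of 25.7 CPM, and 33.4 to 80.0 CPM in Pon2-/- HSCs, with a median of 56.5 CPM. Its log2 fold change was 0.82 (interval -0.39 to 2.03), and the groups overlapped.

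Summed by family, the samples of WT and Pon2-/- HSCs overlapped for these other genes too. The NADPH-supplying enzymes summed to 1641 ± 118 CPM in WT against 1696 ± 336 CPM in Pon2-/- HSCs, and the partners of thioredoxin and peroxiredoxin to 917 ± 151 and 943 ± 85.5 CPM (SD, 6 mice each). The subunits of the NADPH oxidase, which produce superoxide, summed to 1452 ± 130 and 1263 ± 344 CPM. The quinone, haem and iron defence genes, to which Ftl1 belongs, summed to 4482 ± 121 and 4266 ± 521 CPM.

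**Figure D5:**
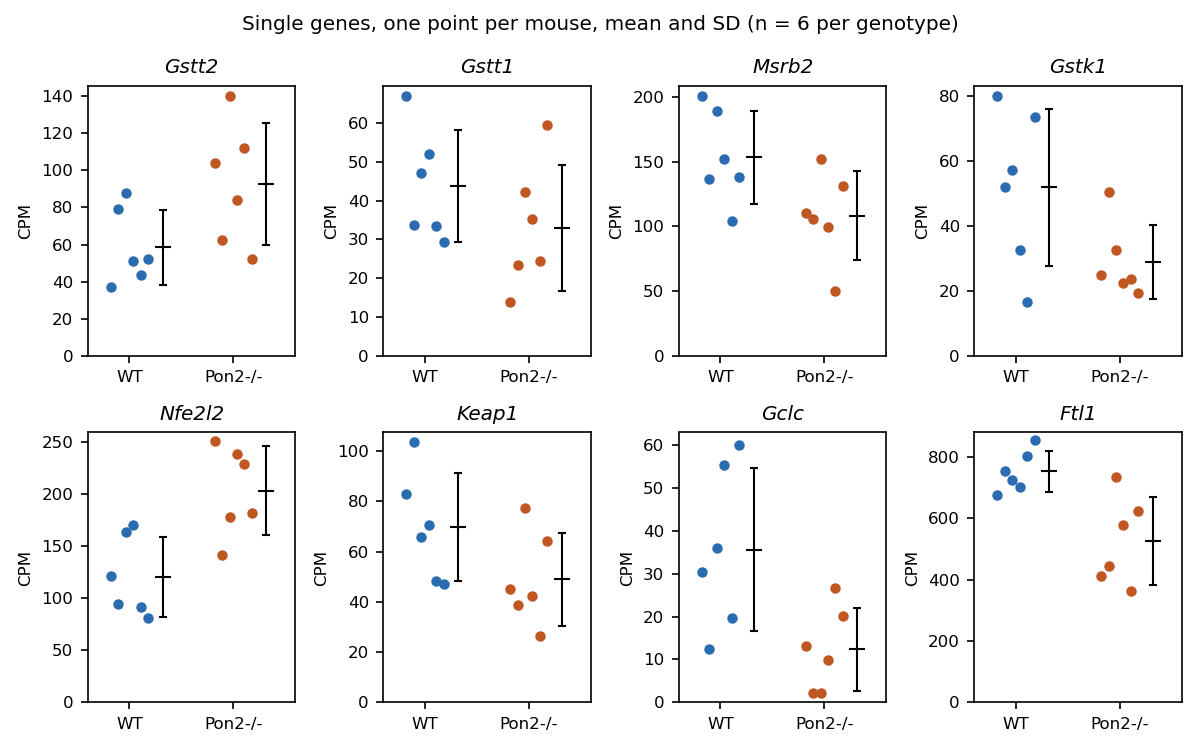
Levels in CPM (y axes, from 0) of Gstt2, Gstt1, Msrb2, Gstk1, Nfe2l2, Keap1, Gclc and Ftl1 in each WT (blue) and Pon2-/- (orange) mouse, with mean and SD at the right of each group (n = 6). In each panel the groups overlap, with the least overlap in Nfe2l2 and Ftl1, and none of these genes passed the FDR threshold.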

How the data were processed

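RNA-seq counts of HSCs from 6 WT and 6 Pon2-/- mice were analysed. After adapter trimming, the authors aligned reads with STAR 2.5.3a against GRCm38.p5 and deposited whole-number counts per gene of GENCODE M12, without normalization, of which the unstranded counts are taken to be given. Gene names and positions are those of GENCODE M21. The 40 genes and the lists of other redox genes and cell type markers were chosen with earlier results of these data known. Genes with values in every sample were those with an unadjusted p below 0.05, Nnt, Pon2, Nfe2l2, Keap1 and the gene with the highest level per length of each family.

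Counts were fitted in R 4.3.3 with edgeR 4.0.16 (TMM, filterByExpr, glmQLFit, glmQLFTest), with genotype as the only term and Benjamini-Hochberg adjustment over 11848 genes. Total counts per sample were 12967791 to 24228280. CPM refer to the TMM-scaled library, and log2 CPM used a prior count of 2. Exact permutation tests were two-sided. Alternatives were DESeq2 1.42.0 and its size factors, limma 3.58.1 voom, robust estimation, other filters and other terms, and leaving out each sample. The procedure was run on simulated data, in which the fold changes were larger than that of any member. This run therefore cannot show how well differences of the size seen in the members would be found. Near copies were searched with minimap2 2.31-r1302. The labels do not state whether mice shared a cage or day, so that p-values measure the spread between these mice. Deviations of same-numbered samples from the mean log2 CPM of their genotype had correlations of 0.000932 to 0.0430 over all tested genes. Such a correlation cannot exclude shared deviations in single genes, such as that of Gpx1 by number range. Numbers were not treated as pairs in the reported fit, and a fit with them as a block is given below.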

Additional observations from a re-analysis of the deposited data

Results flagged for a closer look

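In the 37 tested members, each genotype was examined for 1 sample lying far from the other 5, which gave 74 groups. By chance, about 1 in 20 groups, or 3.7 of 74, would be picked out, and 2 were. For Gpx7, the peroxidase of the endoplasmic reticulum, Pon2-/- replicate 1 had 0 CPM, while the 5 remaining mice of this genotype had 15.7 to 70.5 CPM. For Gss, glutathione synthetase, WT replicate 4 had 0.705 CPM, while the other 5 WT samples had 39.8 to 71.5 CPM. On the scale of log2 CPM, the gap to the next sample was 0.769 of the range of the group for Gpx7 and 0.869 for Gss. In CPM the gap was a smaller share of the range for both genes.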

How the results depend on the processing

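No member passed the FDR in any of the 21 alternative settings. The sign of a member's log2 fold change was that of the reported fit in 736 of 776 pairs of member and setting, and 11 members changed sign at least once. The number of members with an unadjusted p below 0.05 was 1 as reported, 0 when each sample of a genotype needed 10 reads, 2 with DESeq2 (Gstk1 and Gstt2), 2 with Y-linked counts as a term (Prdx6 and Gstt2), 2 with the number ranges as a term (Gstt2 and Msrb2), 1 without a filter (Gpx8), 1 with limma voom (Msrb2) and 0 to 2 when 1 sample was left out. The terms for Y-linked counts (samples above 10 CPM) and for the number ranges were chosen after seeing the data. With limma voom, Gpx7 had a log2 fold change of -0.63 instead of 0.66. With Y-linked counts as a term, those of Gpx1 (0.069), Gss (0.024), Mgst1 (0.060) and Msra (0.007) were above 0. Leaving out 1 sample gave log2 fold changes of -0.043 to 0.106 for Prdx1, -0.32 to 0.16 for Prdx3, -0.11 to 0.21 for Glrx, -0.14 to 0.51 for Glrx5, -0.122 to 0.061 for Gpx1, -0.536 to 0.089 for Gss, -0.58 to 0.24 for Gsr, -0.30 to 0.22 for Mgst1, -0.18 to 0.74 for Mgst2 and -0.171 to 0.083 for Msra. The median of the members lay between -0.11 and 0.05 when 1 sample was left out. The cause of these changes was not tested. A fit with the replicate number as a block called 0 members, with 1 at an unadjusted p below 0.05 (Msrb2) and a median of -0.05.

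Across these settings the adjusted p of Nfe2l2 was 0.0516 to 1.0 and that of Ftl1 0.140 to 1.0. The unadjusted p of both, from edgeR, DESeq2 or limma voom, was below 0.05 in all 12 leave-one-out fits and in the 9 other settings. Neither gene passed the FDR in any of them. With the length of the longest transcript, the level per length of 18 members moved by more than 1 SD. The biological coefficient of variation of 99.2% limits what 6 mice per genotype can show, above all for members below 100 CPM, and a gene that did not pass is not shown to be unchanged.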
